A study of Mus musculus with 57 samples.

Results

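Kupffer cells, which are macrophages resident in the liver, were compared after 1 week on a NASH diet and at week 0, on the control diet. The comparison rests on 2 libraries at 1 week and 3 at week 0, taken by their labels from the 57 RNA libraries of the study, and it covers all genes. The deposited table held 24941 genes once each symbol was reduced to its most counted transcript, and 14552 of them had enough counts to be tested. All 5 libraries were poly-A RNA of cells sorted as F4/80-high and Tim4-positive from C57BL/6J mice, which is the only genotype the labels give. Both groups share that sort and, per the labels' protocols, a liver digestion in the presence of 1 µM flavopiridol, a drug that blocks transcription. Hepatocytes were spun out at low speed before the sort, and dead cells were stained with a dye. The labels do not give the age of the mice, what the diet contains, or whether the replicates of a group were separate animals. The p-values below therefore measure a spread between libraries that may be technical. That spread was estimated over all 17 Kupffer cell libraries of the time course, not over the 5 compared alone.

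Further libraries of the study served as references for the source of a transcript. Whole liver was measured in 10 libraries of mice labelled Clec4f-cre DTR neg, after 4 weeks on another NASH diet, CDAHFD. Sorted liver macrophages and blood monocytes of healthy mice and mice with NASH made up 6 groups of 2 libraries. A gene whose mean level in whole liver was at least 4 times that of every sorted group is called liver-enriched here, the reverse is called macrophage-enriched, and a gene between these is called shared. Since the whole liver came from another diet and another mouse line, a hepatocyte gene that this diet lowers can land among the shared genes.

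Kupffer cells line the sinusoids, where blood from the gut meets the hepatocytes, and they clear particles, dying cells and modified lipoproteins. Cholesterol taken up in this way is turned into oxysterols that activate the nuclear receptors called LXR, which switch on cholesterol export and fatty acid synthesis, while fatty acids activate the PPAR family, which drives fatty acid oxidation and lipid droplet genes. Excess cholesterol in the cell also shuts down SREBP2 and with it cholesterol synthesis. Macrophages additionally engulf pieces of their neighbours, and free RNA or cell fragments can follow them through a sort, so transcripts of hepatocytes in a Kupffer cell library need not have been made by the Kupffer cell.

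The 2 libraries at 1 week stood apart in ways that bear on what follows. Levels are given as CPM, read counts normalised to the library size with TMM scaling, and they are compared between libraries, not between genes. Total counts of the 5 libraries ran from 15.3 M to 24.6 M. Transcripts of 4 genes, Rpl35, Rpl19, Rps28 and Gm5148, were at 10.8 CPM or more in every library of the 1, 4 and 10 week groups and at 0.644 CPM or less in every library of the 0, 20 and 30 week groups. A further 6 genes had at least 10 CPM in both 1 week libraries and were at least 4 times higher there than in any of the other 15 Kupffer cell libraries of the time course, among them Rpl29, a ribosomal protein gene, at 50.2 and 42.6 CPM against 0.698 or less, and Ifi208, of the interferon-inducible Ifi200 family, at 51.6 and 50.5 CPM against 1.29 or less. No gene was lower by that rule. The rules that picked these 10 genes were chosen after the values were seen, and what set these libraries apart was not tested. Nnt, the mitochondrial transhydrogenase, a gene known to differ between C57BL/6 substrains, stood at 96.3, 97.2 and 108 CPM at week 0, at 49.3 and 42.8 CPM at 1 week and at 94.9 and 88.2 CPM at 4 weeks.

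Across all genes, 2325 differed between 1 week and week 0 (16% of 14552, edgeR's quasi-likelihood test, two-sided, adjusted by Benjamini-Hochberg to under 0.05). Of these 1371 were higher at 1 week (9.42%) and 954 lower (6.56%). "Rose" and "fell" below are used of these genes, and every adjusted p below comes from this test. The median log2 change of all genes was -0.004. With only the 5 libraries compared in the fit, 1492 genes were called. Among 941 genes with at least 10% of their 50-base words in other genes, so that reads could have come from a copy, 281 rose (29.9%) and 8 fell (0.85%), against 1071 (8%) and 933 (6.97%) of 13387 genes below that share. In a fit of the deposited TPM values the median shifted to -0.17 and the split turned to 898 higher and 2223 lower. The expression of 6572 genes did not overlap between the groups (45.2%), a background to bear in mind wherever groups are said not to overlap. Without the first 1 week library 1068 genes were called, without the second 1484, and without 1 of the week 0 libraries 1775 to 1931.

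The source of the transcript split the result. Liver-enriched genes rose in 632 of 1264 cases (50%) and fell in 7 (0.554%), with a median log2 change of 2.10. Macrophage-enriched genes rose in 203 of 4132 cases (4.91%) and fell in 376 (9.1%), with a median of -0.12. Among 8599 shared genes 527 rose (6.13%) and 560 fell (6.51%). A rise was thus the rule among liver-enriched genes and a fall the more frequent call among macrophage-enriched ones.

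**Figure D1:**
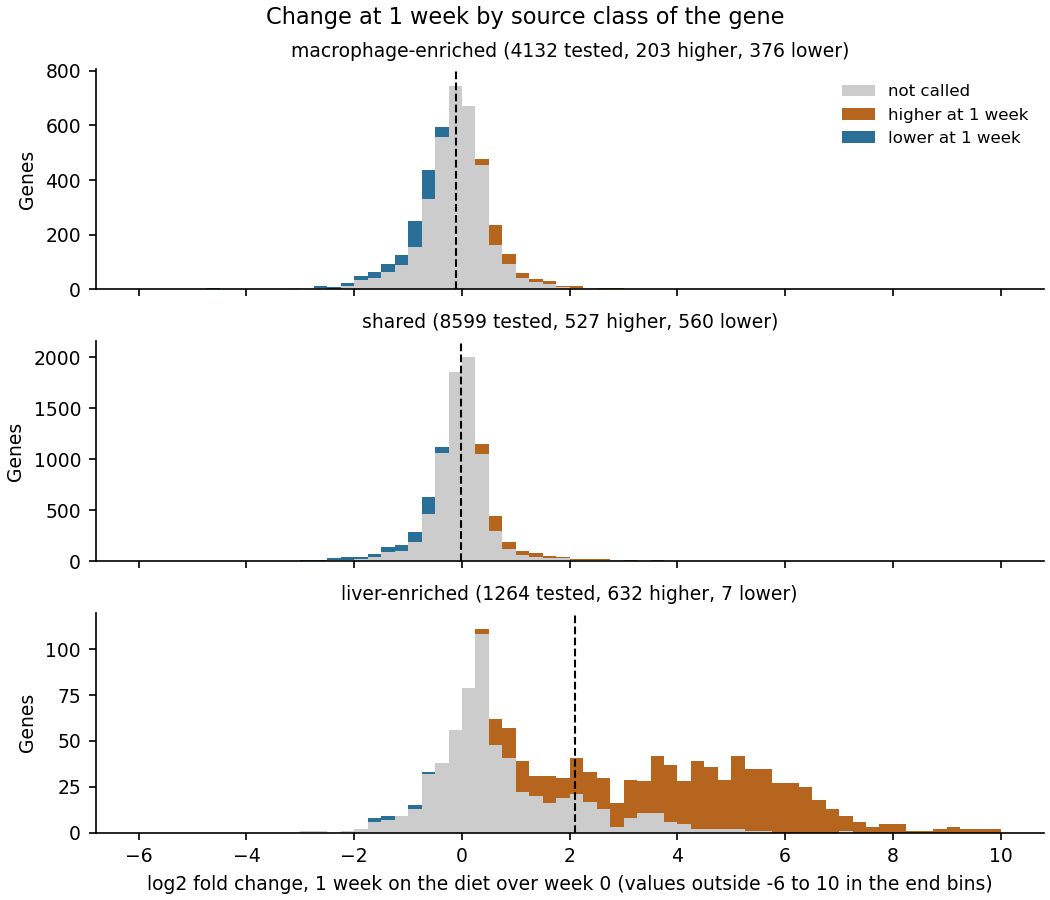
Histograms of the log2 fold change at 1 week over week 0, 1 panel for each source class, with genes called higher in brown, genes called lower in blue and the class median as a dashed line. The liver-enriched panel has a broad second hump of called genes well above 0 (632 higher, 7 lower), while the macrophage-enriched panel is narrow, with a median of -0.12.

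Hepatocyte transcripts were the largest change at 1 week. All 16 hepatocyte markers rose, as did 28 of 28 plasma protein genes, 24 of 28 tested cytochrome P450 genes, 21 of 23 genes of the urea cycle and amino acid breakdown and 10 of 11 genes of gluconeogenesis and glycogen, against 9.42% of all genes. Of 20 listed major urinary protein genes 13 were tested, and all 13 rose. Genes near 0 at week 0 pass the count filter through libraries where they are high, so this full count carries little weight. These genes also share sequence (78.1% of the 50-base words of Mup17), so they are not separate rises. The summed level of the 16 markers was 178, 94.0 and 59.9 CPM at week 0 and 5828 and 3645 CPM at 1 week. Both 1 week libraries lay far above all 3 control libraries, and the sum was lower again at 4 weeks, at 2290 and 2399 CPM. In whole liver it was 124900 ± 18060 CPM (SD, n = 10), so that the Kupffer cell libraries held 4.67% and 2.92% of the whole-liver level at 1 week, against 0.143%, 0.0752% and 0.0479% at week 0. With 2 libraries against 3, an exact rank test cannot give a two-sided p below 0.2. In libraries of sorted cells, more hepatocyte material per Kupffer cell and more hepatocyte fragments in the sort cannot be told apart, just as fewer cells of a type and less RNA per cell cannot.

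**Figure D2:**
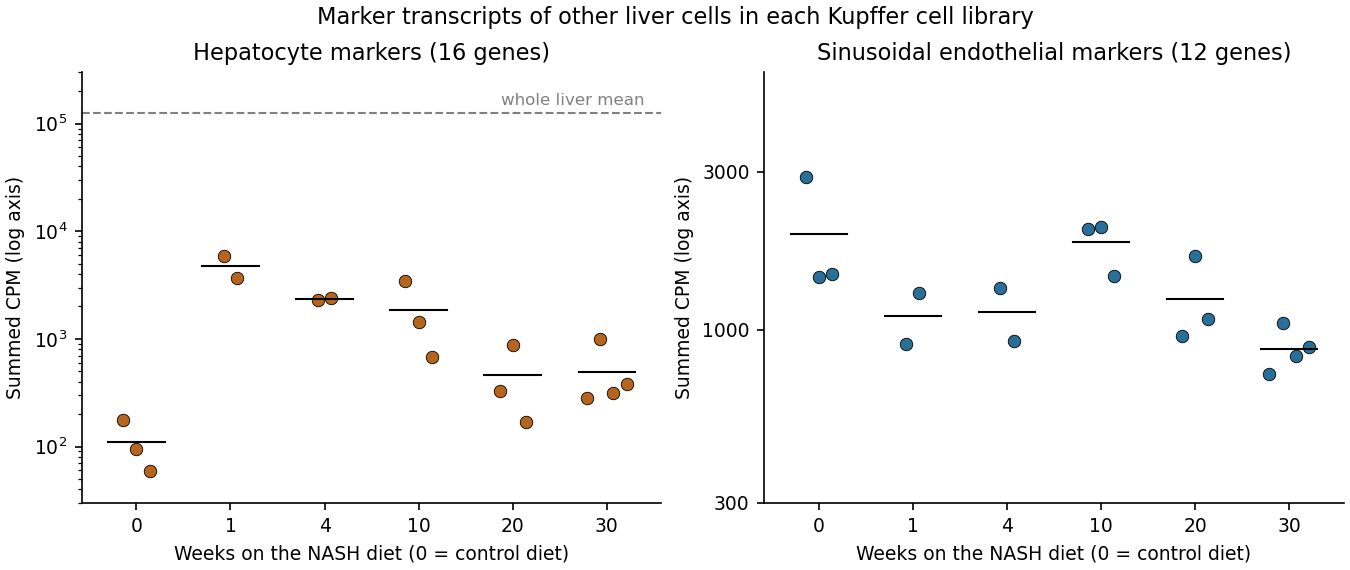
Summed CPM (log axis) of 16 hepatocyte markers and of 12 sinusoidal endothelial markers in each of the 17 Kupffer cell libraries by weeks on the diet, with 1 point per library, a bar at the group mean and, for hepatocyte markers, the whole-liver mean as a dashed line. Hepatocyte transcripts peak at 1 week (5828 and 3645 CPM), and the endothelial sum is highest in week 0 replicate 1 (2903 CPM).

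Single hepatocyte genes showed the same step. Alb, which encodes serum albumin, was at 103, 48.1 and 27.2 CPM at week 0 and at 2096 and 1741 CPM at 1 week (log2 change 5.01, SE 0.84, adjusted p = 0.000670). Apoa1, the main protein of high-density lipoprotein, went from 3.70, 2.87 and 2.02 CPM to 367 and 218 CPM (6.66, SE 0.68, adjusted p = 1.53e-05). Cyp2e1, a P450 of the pericentral hepatocyte that oxidises ethanol, went from 4.07, 1.58 and 0.636 CPM to 326 and 199 CPM (6.91, SE 0.86, adjusted p = 8.92e-05). In all of these genes the first 1 week library was the higher one, as in the marker sum. Cps1, which starts the urea cycle, stood at 4.43, 2.75 and 2.54 CPM at week 0 and at 371 and 166 CPM at 1 week. C4bp, a complement inhibitor secreted by the liver, was at 0.117 CPM or less at week 0 and at 34.9 and 20.5 CPM at 1 week. Cyp2a12 was all but undetected at week 0 and reached 25.8 and 16.7 CPM. Abcg5 and Abcg8, which together form the pump that moves sterols into bile, had at most 0.117 CPM at week 0 and 7.63 to 10.6 CPM at 1 week. Nat6 and Repin1 were the liver-enriched genes that fell and passed the floor for naming, with log2 changes of -0.78 and -0.63. Repin1 lost the call without either 1 week library (adjusted p = 0.16 in both cases) and without the first or second week 0 library (0.089 and 0.098), and Nat6 without the second 1 week library (0.051).

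The mix of hepatocyte transcripts was not that of the reference liver. For 605 liver-enriched genes that rose and had at least 20 CPM in whole liver, the level gained over week 0 was divided by the whole-liver level. The median gain was 4.85% of the liver level in the first 1 week library and 3.00% in the second, with the middle 50% of genes between 3.41% and 7.40% and between 2.11% and 4.37%. Plasma protein genes lay close to that, at medians of 5.45% and 3.17%, as did urea cycle genes at 4.11% and 2.71%. Major urinary protein genes, which encode pheromone carriers made in bulk by hepatocytes of male mice, had a median of 42.9% and 12.5% over 7 genes. Among these Mup20 was at 7.93% and 2.61%, below the median of all genes in the second library, and Mup3 at 32.7% and 16.2%. Mup17 reached 229 and 48.6 CPM from 0.452 CPM or less at week 0 (log2 change 9.45, SE 0.72, adjusted p = 8.62e-07), which is 306% and 64.0% of its level in the reference liver, and at 4 weeks it was back at 2.42 and 4.08 CPM. Cyp2c70, a P450 that makes muricholic bile acids, stood at 94.2% and 33.3% of its liver level, Selenbp2 at 52.2% and 27.2% and the carbonic anhydrase Car3 at 45.9% and 24.8%. Genes of these families share sequence, since 78.1% of the 50-base words of Mup17 occur in other genes, and reads could have been split among copies. The part played by the other diet and mouse line of the reference in these ratios was not tested.

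**Figure D3:**
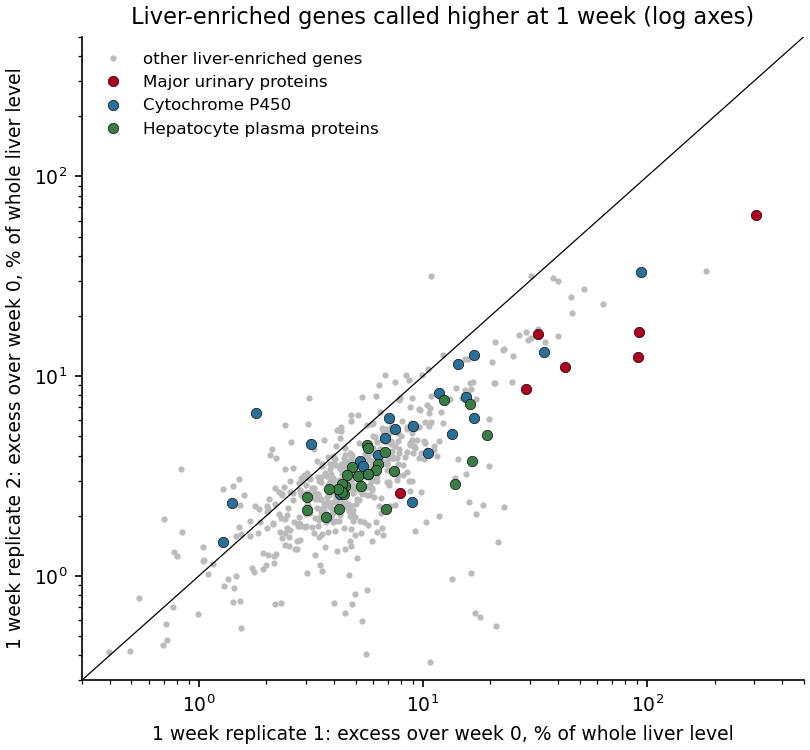
Level gained at 1 week as a percent of the whole-liver level in the 2 replicates (log axes), with 1 point for each of the 599 liver-enriched genes with a gain above 0 in both, and the line of equality. Most genes lie below the line between 1% and 10%, and major urinary protein genes (red) reach 306% in replicate 1.

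Acute phase proteins, which hepatocytes release in inflammation, rose with the rest in 13 of 18 cases, at medians of 7.09% and 2.44% of the liver level. Fgb, a fibrinogen chain, went from 8.94, 2.81 and 2.14 CPM to 565 and 155 CPM, and Saa1, a serum amyloid, from 0.316 CPM or less to 23.7 and 9.74 CPM. The first 1 week library was the higher in both genes. Saa3, the serum amyloid that macrophages make, was the member that fell, from 3.88, 5.86 and 8.27 CPM to 0.341 and 0.253 CPM (log2 change -4.32, SE 1.28, adjusted p = 0.0305). It is named because it alone fell, and its adjusted p was 0.16 and 0.17 without the first and second 1 week libraries and 0.067 without the third week 0 library.

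With these transcripts set apart, the identity genes of Kupffer cells moved little. Among 24 genes of the Kupffer cell identity list, 2 rose and none fell, against 9.42% and 6.56% of all genes. The median log2 change of the list was 0.05. Clec4f, the lectin that marks Kupffer cells, was at 6561, 10390 and 10540 CPM at week 0 and at 11030 and 12450 CPM at 1 week (log2 change 0.36, SE 0.22, adjusted p = 0.304). Timd4, the phosphatidylserine receptor used in the sort, stood at 775, 853 and 916 CPM and at 747 and 1017 CPM (0.06, SE 0.48, adjusted p = 0.959). Vsig4, a complement receptor, was between 2278 and 3374 CPM in all 5 libraries. Cd5l, a secreted scavenger protein, and Adgre1, which encodes F4/80, did not pass the test, with log2 changes of 0.54 and 0.48 and adjusted p of 0.0904 and 0.109. The defining markers were thus abundant in both groups, with overlap in Timd4 and Vsig4, while Clec4f, Cd5l and Adgre1 were higher in both 1 week libraries than in any at week 0 without passing the test. The members that rose were Il18bp, a secreted blocker of interleukin 18 (0.60, adjusted p = 0.0268), and Cd38, an ectoenzyme that consumes NAD (0.55, adjusted p = 0.0467). Il18bp lost the call without the second 1 week library (adjusted p = 0.41) and without the first or second week 0 library (0.088 and 0.053). Cd38 lost it without the first 1 week library (adjusted p = 0.45) and without the second or the third week 0 library (0.13 and 0.12). Marco, a scavenger receptor, was at 1343, 1133 and 572 CPM at week 0 and at 288 and 323 CPM at 1 week, without overlap but with an adjusted p of 0.223.

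Of 19 lineage factors of macrophages, 1 rose and 1 fell, against 9.42% and 6.56% of all genes. Maf, a factor that keeps macrophages mature, went from 1129, 772 and 867 CPM to 554 and 447 CPM (log2 change -0.88, SE 0.23, adjusted p = 0.0161). All values at 1 week lay below all values at week 0, yet without the second 1 week library the adjusted p was 0.14, and without the first week 0 library 0.056. Irf8, a factor of monocytes and dendritic cells, rose by 0.53 on the log2 scale (adjusted p = 0.0205), a call lost without the first 1 week library (adjusted p = 0.14), the second (0.097) or the third week 0 library (0.059). Spi1, Zeb2 and Nr1h3, which encodes LXR alpha, had log2 changes between -0.18 and -0.02 and did not pass.

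Genes of lipid handling rose as well. Among 16 LXR targets that are not liver-enriched, 5 rose and none fell, at a median log2 change of 0.47, against 9.42% of all genes risen and a median of -0.004. Scd1, which desaturates fatty acids and lies at chr19:44394450-44407709 (mm10, minus strand), was at 222, 232 and 264 CPM at week 0 and at 941 and 1501 CPM at 1 week (log2 change 2.35, SE 0.22, adjusted p = 8.28e-06). Abca1, the pump that loads cholesterol onto apolipoprotein A-I, was at 636, 512 and 653 CPM and then at 1340 and 1431 CPM (1.21, SE 0.21, adjusted p = 0.000915). Neither gene overlapped between the groups, and in whole liver both were below every Kupffer cell library of the comparison, at 182 CPM for Scd1 and 216 CPM for Abca1. That liver came from another diet and mouse line, and the level of both genes in hepatocytes at 1 week of this diet was not measured. Srebf1, which encodes the factor SREBP1 of fatty acid synthesis, went from 118, 103 and 101 CPM to 197 and 163 CPM (0.74, SE 0.14, adjusted p = 0.00216), with an adjusted p of 0.062 without the first 1 week library. Apoc1, a small apolipoprotein, went from 307, 634 and 613 CPM to 1194 and 1165 CPM (1.19, SE 0.22, adjusted p = 0.00155). Smpdl3a, a phosphodiesterase and LXR target, rose by 0.56 (adjusted p = 0.0449), a call lost without either 1 week library (0.13 and 0.22) and without the first or second week 0 library (0.14 and 0.096). Abcg1, the second cholesterol exporter, was at 498, 425 and 428 CPM and at 405 and 824 CPM and did not pass (adjusted p = 0.214). With Abcg5 and Abcg8 the whole list held 7 risen members. Of these 7, 5 were called without the first 1 week library, since Srebf1 and Smpdl3a were not, and Abcg1 and Cd5l were called in their place. Without the second, 6 of the 7 were called. In a fit that took the summed hepatocyte signal of each library as a covariate no member was called, and in that fit the covariate and the 1 week group can hardly be told apart, as both 1 week libraries carried the highest sums.

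Of the risen LXR targets, promoter windows of Abca1 and Srebf1 are shown because both hold a textbook LXR response element, a pair of direct repeats spaced by 4 bases. The sequences are the 250 bases before a RefSeq start on the gene's own strand (RefSeq, GRCm38.p6), Abca1 at chr4:53159896-53160145 and Srebf1 at chr11:60210472-60210721, both on the minus strand, with the match in capitals (TGACC, any 5 bases, then TAACC).
Abca1: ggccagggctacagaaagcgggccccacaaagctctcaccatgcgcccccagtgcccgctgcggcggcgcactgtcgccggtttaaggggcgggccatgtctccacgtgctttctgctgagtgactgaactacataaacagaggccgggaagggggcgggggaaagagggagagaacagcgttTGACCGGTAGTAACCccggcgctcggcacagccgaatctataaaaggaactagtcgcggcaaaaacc
Srebf1: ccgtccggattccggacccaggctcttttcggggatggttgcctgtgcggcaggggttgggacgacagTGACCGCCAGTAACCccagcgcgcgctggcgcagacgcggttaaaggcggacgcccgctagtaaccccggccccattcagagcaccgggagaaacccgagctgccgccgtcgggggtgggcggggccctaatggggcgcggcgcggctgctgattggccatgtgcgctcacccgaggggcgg
The match lies 67 to 53 bases before the start in Abca1 and 182 to 168 bases before it in Srebf1. The Abca1 window abuts the transcript whose reads were counted. That of Srebf1 belongs to another start, inside the gene and downstream of the one at 60220627 of the transcript counted here, and the counts do not show which start the reads came from. On both strands the motif occurs in any window of 12 of 27025 genes (0.0444%), of 2 of the 12 listed LXR targets in the table and of 3 of 1031 genes that rose (0.291%). The 27025 are all genes with a window, tested here or not, and the 1031 are the risen genes that have one. The shares thus rest on unlike sets of genes and do not measure enrichment. A match describes letters in this window and says nothing of binding in these cells.

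Among 24 PPAR targets and genes of fatty acid oxidation 12 rose, of which 8 are liver-enriched genes, and among the 10 members that are not liver-enriched 4 rose. Of 17 lipid droplet genes 7 rose, and of the 10 that are not liver-enriched 3 rose. Over all genes 9.42% rose. After a whole-liver share was subtracted from each library, 3 PPAR targets rose and 1 fell at a median log2 change of -0.01, against 0.54 before, and 3 of 16 lipid droplet genes rose and 1 fell at a median of 0.05. In the fit without the first 1 week library 8 PPAR targets and 3 lipid droplet genes rose. The count of PPAR targets was also 8 without the second 1 week library and without the first week 0 library. Plin2, the coat protein of lipid droplets, was at 132, 181 and 182 CPM at week 0 and at 542 and 496 CPM at 1 week (log2 change 1.66, SE 0.17, adjusted p = 1.35e-05). Acot1, a thioesterase that releases fatty acids from coenzyme A, was at 8.49, 12.2 and 9.71 CPM and then at 31.8 and 55.2 CPM (2.10, SE 0.27, adjusted p = 0.000114). Plin2 was at 1998 CPM in whole liver, and after the subtraction the log2 changes of Plin2 and Acot1 were 1.53 and 2.04. Cpt1a, which admits fatty acids to mitochondria, and Hadha, of the oxidation cycle itself, rose by 0.57 and 0.48. Cpt1a had an adjusted p of 0.29 without the second 1 week library and of 0.058 and 0.078 without the first and second week 0 libraries, and Hadha one of 0.083 without the second 1 week library. Hilpda, an inhibitor of lipolysis, was at 7.09, 6.44 and 5.72 CPM and then at 34.2 and 10.9 CPM, and without the first 1 week library its adjusted p was 0.24. Soat1, which esterifies cholesterol for storage, rose by 0.44 (adjusted p = 0.0266), a call lost without either 1 week library (0.11 and 0.15) and without the second or the third week 0 library (0.090 and 0.061).

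Fatty acid synthesis genes other than liver-enriched ones rose in 4 of 12 cases and fell in 1, against 9.42% and 6.56% of all genes. Besides Scd1 and Srebf1 they were Thrsp, a regulator of lipogenesis, and Acaca, which makes malonyl coenzyme A (0.93, adjusted p = 0.0366). Acaca lost its call without either 1 week library (adjusted p = 0.074 and 0.23) and without the second or the third week 0 library (0.12 and 0.059). Thrsp was at 0.0903, 0.644 and 0.347 CPM at week 0 and at 8.17 and 9.28 CPM at 1 week (log2 change 4.61, SE 0.72, adjusted p = 0.000405), close to the 9.76 CPM of whole liver. It was at 0.279 and 0.190 CPM again at 4 weeks. Pnpla3, a lipase of lipid droplets, went from 3.66, 5.74 and 3.99 CPM to 0.908 and 1.10 CPM (-2.14, adjusted p = 0.00824, then 0.088 and 0.052 without the first and second 1 week libraries). Fasn, the fatty acid synthase, did not pass, at 112, 65.2 and 58.6 CPM and 102 and 93.5 CPM.

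Cholesterol synthesis genes were mostly level, with 1 of 25 risen and 1 fallen at a median log2 change of 0.08. Mvd, a mevalonate enzyme, was at 20.9, 19.7 and 21.5 CPM at week 0 and at 9.76 and 11.3 CPM at 1 week (-0.97, SE 0.20, adjusted p = 0.00282). The groups were tight and apart, and at 4 weeks Mvd stood at 23.4 and 31.4 CPM.

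Genes of lipid-associated macrophages, a state described in fatty liver and adipose tissue, rose in 4 of 20 cases, against 9.42% of all genes. The median log2 change of the list was 0.69. Gpnmb, a membrane glycoprotein of that state, was at 0.813, 0.937 and 1.21 CPM at week 0, at 6.98 and 10.6 CPM at 1 week and at 37.3 and 8.72 CPM at 4 weeks (log2 change at 1 week 3.17, SE 0.62, adjusted p = 0.00248). Whole liver held 415 CPM of Gpnmb, and the highest sorted group 1107 CPM. The liver share to be subtracted exceeded the Gpnmb level of both 1 week libraries, and counts below 0 were set to 0. The log2 change was then -6.45 (SE 3.76, adjusted p = 0.288), from which no direction can be read. Ctsd, a lysosomal protease, rose by 0.56 (adjusted p = 0.0351), with an adjusted p of 0.14 without the first 1 week library, 0.19 without the second and 0.10 without the first week 0 library. Fabp5, a fatty acid carrier of at most 3.75 CPM in the 5 libraries, rose by 2.55 (adjusted p = 0.0186), and its adjusted p without the first or second 1 week library or the third week 0 library was 0.082, 0.063 and 0.065. Plin2, described above, is the remaining member. Trem2, the lipid receptor of these cells, was at 20.2, 53.8 and 31.1 CPM and then at 56.3 and 65.7 CPM, with no overlap and an adjusted p of 0.133. Cd9 and Spp1 did not pass either (adjusted p = 0.111 and 0.0910).

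Inflammatory cytokines gave no call at 1 week. Of 24 members of the cytokine and NF-kB list none was called by edgeR's quasi-likelihood test, at a median log2 change of -0.01, while 8 were at an unadjusted p under 0.05, 2 were called higher by DESeq2 and 3 lower by limma on TPM. Tnf, Il1b, Il6 and Nfkbia had adjusted p between 0.189 and 0.967. Chemokines, the attractants of leukocytes, rose in 5 of 21 cases at a median of 1.21, against 9.42% of all genes risen. Cxcl2, an attractant of neutrophils, was at 3.75, 1.76 and 3.93 CPM at week 0 and at 25.0 and 60.02 CPM at 1 week (log2 change 3.75, SE 0.75, adjusted p = 0.00272), and at 4 weeks it was at 45.0 and 76.7 CPM. Here the second 1 week library was the higher one. The other risen chemokines were high in the first library instead. Ccl9 went from 22.1, 10.9 and 16.4 CPM to 105 and 36.4 CPM, Ccl7 from 6.19, 3.63 and 3.35 CPM to 46.8 and 5.57 CPM, and Ccl2, the main attractant of monocytes, from 20.8, 13.4 and 15.96 CPM to 75.3 and 18.8 CPM. For Ccl7 and Ccl2 the second 1 week library lay within the week 0 range. Without the first 1 week library 1 chemokine was called instead of 5, and Ccl9, Ccl7, Ccl12 and Ccl2 had adjusted p of 0.23, 0.87, 0.50 and 0.90. Ccl2 also lost its call without the second or the third week 0 library (0.10 and 0.086). Ccl7 also lost its call without the second or the third week 0 library (0.064 and 0.068) and Ccl12 without any 1 of the 3 (0.061 to 0.087).

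Interferon-stimulated genes, which type I interferon switches on against viruses, rose in 4 of 23 cases, against 9.42% of all genes. The median log2 change of the list was 0.87. Oas1a, which senses double-stranded RNA, was at 39.6, 65.7 and 58.1 CPM at week 0, at 112 and 117 CPM at 1 week and at 110 and 59.3 CPM at 4 weeks (log2 change at 1 week 1.07, SE 0.24, adjusted p = 0.00559), and 57.6% of its 50-base words occur in other genes. Irf7, the factor that amplifies the response, was at 452, 638 and 678 CPM and then at 1002 and 1152 CPM (0.87, adjusted p = 0.0390), and Rsad2, an antiviral enzyme, at 75.03, 76.1 and 83.3 CPM and then at 177 and 188 CPM (1.22, adjusted p = 0.0327). Both 1 week libraries were above all week 0 libraries in these 3 genes. Ifih1, a sensor of viral RNA, rose by 0.64. Without the first 1 week library Irf7, Rsad2 and Ifih1 had adjusted p of 0.12, 0.12 and 0.13, and without the second 0.20, 0.13 and 0.11. In the fit without the first 1 week library 1 member of the list was called instead of 4. Rsad2 lost its call without any 1 of the week 0 libraries too (0.065 to 0.079), Irf7 without the first or second (0.13 and 0.062) and Ifih1 without the second (0.075). With the endothelial marker sum as a covariate no member of the list was called, and with the trend over GC content removed 6 were. Ifit3, Isg15 and Ifit1 missed the threshold with log2 changes of 1.42, 1.26 and 0.93 (adjusted p = 0.0508, 0.109 and 0.102).

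The promoters of Oas1a and Rsad2 are shown because they hold the core of the interferon-stimulated response element, searched on both strands as GAAA, any 2 bases, then GAAA. They lie at chr5:120907526-120907775 and chr12:26456453-26456702 (RefSeq, GRCm38.p6, minus strand, 250 bases before the start), with the matches in capitals. In Oas1a 2 overlapping matches form 1 run, and in Rsad2 the match is on the opposite strand.
Oas1a: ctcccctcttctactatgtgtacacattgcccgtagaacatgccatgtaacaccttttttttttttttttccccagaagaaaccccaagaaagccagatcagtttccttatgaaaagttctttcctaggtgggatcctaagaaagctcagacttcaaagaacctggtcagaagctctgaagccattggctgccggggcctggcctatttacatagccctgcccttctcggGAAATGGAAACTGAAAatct
Rsad2: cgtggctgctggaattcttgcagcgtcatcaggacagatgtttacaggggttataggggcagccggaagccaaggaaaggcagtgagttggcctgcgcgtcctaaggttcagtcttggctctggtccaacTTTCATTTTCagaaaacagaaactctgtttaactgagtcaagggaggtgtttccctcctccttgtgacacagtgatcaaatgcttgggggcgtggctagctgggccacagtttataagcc
The motif occurs in any window of 936 of 27025 genes (3.46%), tested or not, of 8 of the 16 listed interferon genes in the table and of 60 of the 1031 risen genes with a window (5.82%). Here too the shares rest on unlike sets of genes and do not measure enrichment. Of the 8, Oas1a and Rsad2 were called, and Bst2, Ifit1, Ifit3, Isg15 and Oas3 had positive log2 changes from 0.75 to 1.42 that did not pass, while Stat2 was at -0.11.

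Of 25 lysosome genes 3 rose, of 11 genes of MHC class II presentation 1 and of 16 of class I presentation 1, against 9.42% of all genes, and none fell. The lysosome count was 0 in a fit of only the 5 libraries compared, 1 without the first 1 week library and 2 without the second. Ctss, the cathepsin that trims the invariant chain of MHC class II, was at 2158, 2502 and 2717 CPM at week 0, at 3827 and 3930 CPM at 1 week and at 2238 and 2597 CPM at 4 weeks (log2 change at 1 week 0.66, SE 0.14, adjusted p = 0.00344). Lamp2, a lysosomal membrane protein, was at 612, 537 and 674 CPM, then at 923 and 875 CPM, and at 4 weeks at 527 and 552 CPM (0.56 at 1 week, adjusted p = 0.00975). In both genes the 1 week libraries were the 2 highest of the 7, and Lamp2 had an adjusted p of 0.096 without the first of them. With the GC and length trend removed, edgeR called the difference between 4 weeks and 1 week neither in Ctss (adjusted p = 0.12) nor in Lamp2 (0.51). Ctsd was the third risen gene of the lysosome list. The nonclassical class I gene H2-T23, 14.5% of whose 50-base words occur in other genes, rose by 1.05 (adjusted p = 0.00660, and 0.11 without the second 1 week library), and class II genes such as Cd74, H2-Aa and H2-Ab1 did not pass. Scavenger receptors gave no call among 16 by edgeR's quasi-likelihood test, with 3 at an unadjusted p under 0.05, 2 called higher by DESeq2 and 1 lower by limma on TPM. Of the receptors for dying cells 1 of 18 was called, Cd300lf, at 74.8, 65.7 and 56.9 CPM and then at 143 and 84.3 CPM, with an adjusted p of 0.52 without the first 1 week library and of 0.073 and 0.11 without the second and the third week 0 libraries, while Mertk and Axl had log2 changes of 0.17 and 0.18 and did not pass.

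Immediate early genes, which answer stimulation within minutes, rose in 4 of 22 cases and fell in 1, against 9.42% and 6.56% of all genes. The count of risen members was 1 without the first 1 week library, without the second week 0 library or without the third, and Egr1 kept its call in each of these fits. Egr1, a zinc finger factor, was at 17.2, 9.02 and 10.1 CPM at week 0, at 50.9 and 115 CPM at 1 week and at 91.2 and 162 CPM at 4 weeks (log2 change at 1 week 2.77, SE 0.46, adjusted p = 0.000649). Klf2, a factor that restrains macrophage activation, fell from 224, 193 and 208 CPM to 115 and 59.1 CPM (-1.26, SE 0.22, adjusted p = 0.000863). The second 1 week library was the more extreme in both genes. Fosb, Atf3 and Maff rose by 2.08, 1.16 and 1.39, of which Maff had an adjusted p of 0.41 without the first 1 week library and of 0.12 and 0.13 without the second and the third week 0 libraries, and Atf3 had an adjusted p of 0.41 without the first 1 week library and of 0.054 to 0.065 without any 1 of the week 0 libraries. Fosb had one of 0.051 and 0.18 without the first and second 1 week libraries and of 0.088 and 0.085 without the second and the third week 0 libraries. Fos was at 133, 19.3 and 121 CPM and then at 278 and 260 CPM (adjusted p = 0.0679), and Jun did not pass.

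Chaperones of the heat shock response, which refold damaged proteins, rose in 9 of 20 cases, against 9.42% of all genes. Hspa8, the constitutive Hsp70, was at 232, 211 and 253 CPM at week 0, at 725 and 510 CPM at 1 week and at 344 and 330 CPM at 4 weeks (log2 change at 1 week 1.41, SE 0.25, adjusted p = 0.00113). Hsp90aa1, the inducible Hsp90, was at 33.2, 25.5 and 28.6 CPM, then at 128 and 60.7 CPM, and at 4 weeks at 31.3 and 44.8 CPM (1.70, SE 0.29, adjusted p = 0.000758). Hspe1, the mitochondrial co-chaperonin, was at 6.69, 12.5 and 10.1 CPM and then at 37.9 and 29.9 CPM (1.80, SE 0.33, adjusted p = 0.00145). No week 0 library reached the 1 week range of these 3 genes. Hspa1b, the stress-inducible Hsp70, was at 7.91, 3.22 and 14.3 CPM at week 0 and at 453 and 31.2 CPM at 1 week, so that 1 library carried most of its rise, and without it the adjusted p was 0.20. With that library left out, 4 members of the list were called instead of 9. Reads of several of these genes may come from their copies, since 62.3% of the 50-base words of Hspa1b, 47.5% of those of Hsp90aa1 and 37.0% of those of Hspa8 occur elsewhere among transcripts. With all genes that share sequence removed before the fit, 2 of the 13 members left rose and 2 fell, at a median log2 change of 0.05, against 9 and 2 of 20 at a median of 0.53 with them. Asns and Trib3, targets of the amino acid stress factor ATF4, are named because they alone fell in this list. Asns was at 11.8, 15.3 and 0 CPM and then at 0.397 and 0.127 CPM, and Trib3 at 9.40, 20.2 and 1.62 CPM and then at 1.70 and 0.844 CPM, so in both the third week 0 library was close to the 1 week ones. Asns had an adjusted p of 0.063 and 0.11 without the first and second 1 week libraries, and Trib3 one of 0.080 and 0.16 then and of 0.081 without the second week 0 library.

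The promoter of Hspe1 is shown because it holds the heat shock element, inverted repeats of GAA searched on both strands as GAA, any 2 bases, TTC, any 2 bases, then GAA. It lies at chr1:55087898-55088147 (RefSeq, GRCm38.p6, plus strand, 250 bases before the start), with 2 overlapping matches in capitals.
Hspe1: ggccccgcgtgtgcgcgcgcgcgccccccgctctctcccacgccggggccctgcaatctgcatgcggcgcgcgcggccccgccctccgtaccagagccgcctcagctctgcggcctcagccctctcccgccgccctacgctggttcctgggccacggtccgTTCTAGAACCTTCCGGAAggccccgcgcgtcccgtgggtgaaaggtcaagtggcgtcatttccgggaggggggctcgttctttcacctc
The element occurs in any window of 139 of 27025 genes (0.514%), tested or not, of 2 of the 17 listed chaperone and stress genes in the table, Hspe1 and Hspd1, and of 6 of the 1031 risen genes with a window (0.582%).

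Antioxidant and mitochondrial genes rose in smaller numbers, beside 9.42% of all genes. Of 16 oxidative stress genes that are not liver-enriched 5 rose, among them Sod1, the cytosolic superoxide dismutase, at 39.8, 92.6 and 76.8 CPM and then 130 and 200 CPM (log2 change 1.24, adjusted p = 0.00791), and Gpx4, which reduces lipid peroxides, at 3.52, 6.85 and 8.09 CPM and then 14.8 and 20.4 CPM (1.52, adjusted p = 0.00353). Without the second 1 week library their adjusted p were 0.13 and 0.053. Mt1, a metallothionein, and Srxn1, a sulfiredoxin, rose through the first 1 week library, at 107 against 31.7 CPM and 87.6 against 47.8 CPM, and without it their adjusted p were 0.70 and 0.34. Of 23 genes of oxidative phosphorylation 6 rose. Cox5b, a subunit of cytochrome oxidase, was at 7.82, 10.0 and 9.42 CPM at week 0 and at 30.02 and 32.6 CPM at 1 week (1.79, SE 0.32, adjusted p = 0.00128), without overlap. Its share of 50-base words found in other genes was 11.9%, and that of Gpx4 34.7%. Pcna, the sliding clamp of DNA replication, was the 1 of 24 cell cycle genes that rose (0.78, adjusted p = 0.0186, with 19.1% of its 50-base words in other genes, then 0.30 without the second 1 week library and 0.068 without the first week 0 library), and Mki67, a marker of dividing cells, did not pass, at 162, 165 and 76.3 CPM and 70.0 and 101 CPM.

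Among macrophage-enriched genes of at least 50 CPM that share little sequence with others and do not overlap between the groups, a rule set after the values were seen, 119 rose and 183 fell. The genes that met the rest of this rule were not counted, so these counts have no share of their own. Of all 4132 macrophage-enriched genes tested, 203 rose (4.91%) and 376 fell (9.1%). Pmp22, a membrane protein better known from myelin, was at 53.6, 71.5 and 71.3 CPM at week 0, at 178 and 226 CPM at 1 week and at 77.8 and 86.2 CPM at 4 weeks (log2 change at 1 week 1.62, SE 0.26, adjusted p = 0.000476). March1, the ligase that marks MHC class II for removal, was at 215, 179 and 203 CPM, then at 364 and 418 CPM, and at 4 weeks at 189 and 222 CPM (0.97, SE 0.16, adjusted p = 0.000694). Among these 3 times both genes were highest at 1 week. With the GC and length trend removed, edgeR no longer called their difference between 4 weeks and 1 week. The log2 difference was then -1.18 for Pmp22 (adjusted p = 0.083) and -0.53 for March1 (adjusted p = 0.23). Pim1, a kinase induced by cytokines, Gpr35, an orphan receptor, and Entpd1, which hydrolyses extracellular ATP, rose by 1.68, 1.54 and 0.98, with adjusted p of 0.16, 0.086 and 0.085 without the first 1 week library.

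Several of the genes that fell most by this rule are given here. Leng8, a nuclear mRNA export factor, was at 426, 446 and 459 CPM at week 0, at 135 and 143 CPM at 1 week and at 304 and 313 CPM at 4 weeks (log2 change at 1 week -1.68, SE 0.20, adjusted p = 6.18e-05). Ikbke, a kinase of innate immune signalling, was at 177, 130 and 136 CPM, then at 56.5 and 36.0 CPM, and at 4 weeks at 100 and 84.5 CPM (-1.68, SE 0.24, adjusted p = 0.000181). Dtx3, a ubiquitin ligase of the Deltex family, fell by 1.92 (adjusted p = 5.35e-05). No week 0 library came near the 1 week range of these 3 genes. Pias3, an inhibitor of STAT3, Bicra, a subunit of a BAF chromatin complex, and Pde1b, a cyclic nucleotide phosphodiesterase, had log2 changes of -1.39, -1.28 and -1.26, and all of these genes kept their call whichever library was left out. Neat1, the nuclear RNA that scaffolds paraspeckles and a shared gene, was at 450, 812 and 691 CPM and then at 155 and 119 CPM (-2.25, SE 0.24, adjusted p = 2.43e-05), and it was at 221 and 176 CPM at 4 weeks.

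Base composition moved with the direction of the change. The median GC content of macrophage-enriched genes was 46.1% in those that rose, 55.2% in those that fell and 50.5% over all tested, and among shared genes it was 46.8%, 55.0% and 49.5%. Risen liver-enriched genes, at 49.3%, were close to their class at 49.7%. When genes that are not liver-enriched were divided into 10 equal bins by GC content, 124 rose and 24 fell in the lowest bin, and 34 rose and 244 fell in the highest. The difference between GC-rich and GC-poor genes, as a log2 deviation from the mean library, was -0.82 and -0.58 in the 1 week libraries and -0.39, -0.15 and -0.25 at week 0. It was -0.83, -0.52 and -0.50 at 10 weeks, but 0.35 and 0.18 at 4 weeks. In the libraries of the latest weeks it was positive throughout, from 0.33 to 0.69. The 4 week and 1 week libraries thus lay on opposite sides of the mean library, and the trend was not confined to 1 week. With this trend and that of length removed, an alternative added after seeing the data, 249 macrophage-enriched genes rose and 292 fell, and 1865 of the 2325 calls remained. Scd1, Abca1, Plin2, Egr1, Klf2, Leng8, Dtx3 and Neat1 kept their calls. The part of library chemistry in this trend was not tested.

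**Figure D4:**
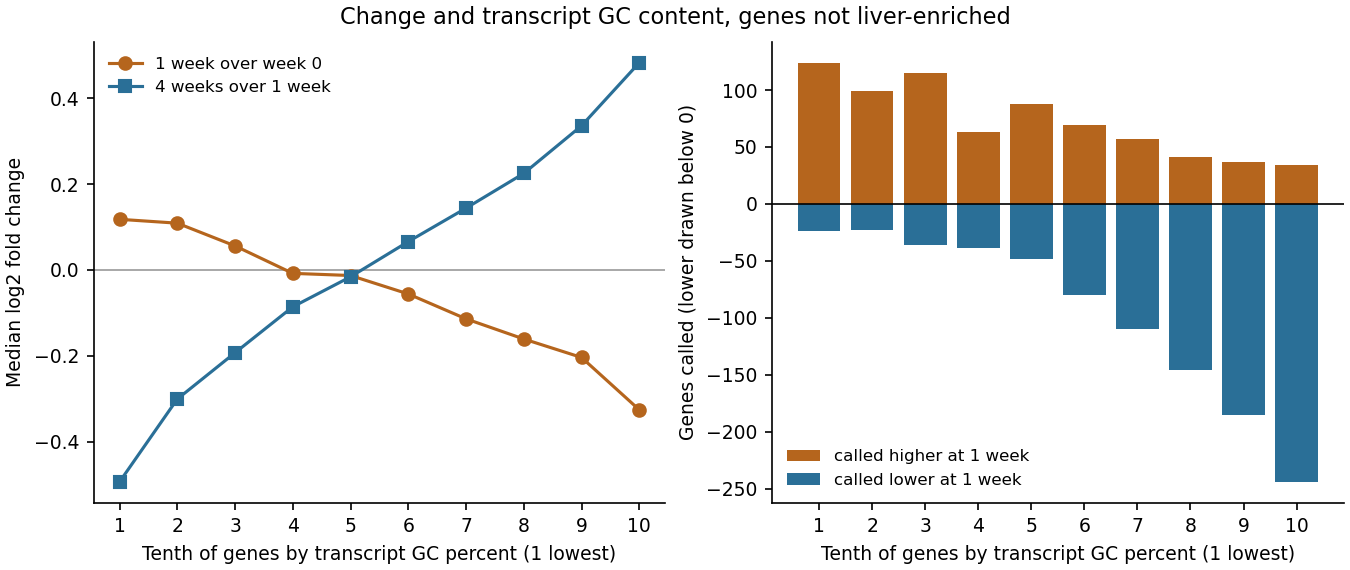
Median log2 fold change (left) and genes called (right) in 10 equal bins of transcript GC content, for genes that are not liver-enriched, with calls for lower levels drawn below 0. The median at 1 week falls from 0.12 in the lowest bin to -0.33 in the highest, the median of 4 weeks over 1 week climbs from -0.49 to 0.48, and fallen genes grow from 24 to 244.

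Transcripts of other liver cells moved in both directions. Of 12 markers of the sinusoidal endothelium, the cells on which Kupffer cells sit, 9 fell and none rose, against 6.56% of all genes fallen. The median log2 change of these markers was -1.67. Their summed level was 2903, 1446 and 1477 CPM at week 0 and 907 and 1294 CPM at 1 week, and none of the markers was absent. Ptprb, a phosphatase of endothelial junctions, was at 429, 77.8 and 97.1 CPM and then at 48.8 and 49.6 CPM, and Kdr, the receptor of VEGF, at 202, 55.7 and 57.6 CPM and then at 21.1 and 27.7 CPM. The first week 0 library stood far above the other week 0 libraries in both, and Ptprb had an adjusted p of 0.19 without it and of 0.17 and 0.14 without the first and second 1 week libraries. Eng, a coreceptor of TGF-beta, went from 254.6, 84.8 and 101 CPM to 37.9 and 46.0 CPM (-1.81, SE 0.39, adjusted p = 0.00466). Kdr had an adjusted p of 0.064 without the first week 0 library and of 0.13 and 0.066 without the first and second 1 week libraries, and Eng of 0.062 without the first 1 week library. In that last fit, and in one with the endothelial sum as a covariate, 1 member of the list was called instead of 9. The 10 genes that fell most among macrophage-enriched and shared genes included Robo4, Flt4 and Clec14a, genes of vascular endothelium, with log2 changes of -2.35, -2.27 and -2.24 and, without the first week 0 library, adjusted p of 0.067, 0.083 and 0.055. Without the first 1 week library these were 0.13, 0.14 and 0.15, and without the second 0.076 and 0.088 for Robo4 and Flt4. Fcgr2b, the inhibitory Fc receptor that this endothelium also carries, fell by 1.98 (adjusted p = 0.00462, and 0.069 without the first 1 week library).

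Stellate cell markers rose in 4 of 12 cases, with sums of 78.1, 48.8 and 67.0 CPM at week 0 and 116 and 119 CPM at 1 week. Over all genes 9.42% rose and 6.56% fell, a background for each marker list that follows too. Dcn, the proteoglycan decorin, was at 4.11, 4.27 and 5.09 CPM and then at 33.8 and 28.6 CPM (2.80, SE 0.52, adjusted p = 0.00159), far apart between the groups. Whole liver held 377 CPM of Dcn. Of the dendritic cell markers Clec9a fell by 0.82 (adjusted p = 0.00702, and 0.13 without the first 1 week library), and of the B and plasma cell markers Jchain fell by 2.14 (adjusted p = 0.0395, and 0.22 and 0.13 without the first and second 1 week libraries and 0.16 without the third week 0 library). No T and NK cell or neutrophil marker was called by edgeR's quasi-likelihood test, with 3 and 0 at an unadjusted p under 0.05, 1 T and NK cell marker called higher by DESeq2 and 1 neutrophil marker lower by limma on TPM. Of 14 markers of Ly6C-high monocytes 3 rose, Hp, Fn1 and F10, all of which encode plasma proteins that hepatocytes secrete as well. Fn1 had an adjusted p of 0.0407, and of 0.35 without the first 1 week library and 0.064 to 0.13 without any 1 of the week 0 libraries. The summed level of the list was 3330, 4446 and 5113 CPM at week 0 and 5593 and 5337 CPM at 1 week. Of 10 markers of Tim4-negative recruited macrophages 1 rose, Clec12a, by 0.54 (adjusted p = 0.0229, then 0.070 and 0.19 without the first and second 1 week libraries and 0.077 without the first week 0 library).

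The 4 week libraries show how much of the 1 week level was still there. This second comparison shares the 1 week libraries with the first, so its values are given beside those above. Between 1 and 4 weeks 1065 genes differed (7.32%), 556 higher at 4 weeks (3.82%) and 509 lower (3.5%). Of the liver-enriched genes 51 were lower and 5 higher at 4 weeks. Of the macrophage-enriched genes 249 were higher and 122 lower. The 5 genes with the greatest fall were Rpl29, Selenbp2, Ifi208, Mup17 and Gm2083, of which Selenbp2, a selenium-binding protein of the liver, went from 71.4 and 38.1 CPM to 0.372 and 0.379 CPM (log2 change -7.16, SE 0.91, adjusted p = 0.000575). Of the genes with the greatest rise Nckap5l, a microtubule-associated protein, was at 56.2, 36.8 and 39.6 CPM at week 0, at 15.6 and 15.7 CPM at 1 week and at 53.6 and 69.2 CPM at 4 weeks (1.97, SE 0.23, adjusted p = 0.000375). The 4 week level of Nckap5l thus lay beside that of week 0, as it did for Mvd, Pde1b, Ctss and Pmp22. With the GC and length trend removed, the difference from 1 week kept its call for Nckap5l and Pde1b but not for Mvd, Ctss and Pmp22. Scd1 was at 613 and 790 CPM at 4 weeks and Abca1 at 1120 and 659 CPM, both between week 0 and 1 week, and neither differed from 1 week by the test (adjusted p = 0.0583 and 0.106). Without the first 1 week library 129 genes differed between 1 and 4 weeks, without the second 812, and without the first or second 4 week library 330 and 390. With the GC and length trend removed 88 differed. In the fit of TPM the share of higher calls was 63.5% instead of 52.2%.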

How the data were processed

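Poly-A RNA of Kupffer cells was sequenced by the authors at 0, 1, 4, 10, 20 and 30 weeks of diet in 17 libraries. The authors deposited whole-number counts and TPM values for 40458 RefSeq transcripts of mm10, made with HOMER's analyzeRepeats.pl over exons per the file headers, and STAR, HOMER and DESeq2 are named in the submitters' processing notes. The annotation field named a symbol on every line, and no value column lacked a sample. Total counts of the 5 libraries compared were 15.3 M to 24.6 M.

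From the deposited counts, 1 transcript per symbol was kept. Genes were filtered with filterByExpr (at least 10 counts, 15 in total), scaled by TMM and fitted over all 17 libraries with edgeR 4.0.16 in R 4.3.3 (quasi-likelihood test, Benjamini-Hochberg adjusted p under 0.05). DESeq2 1.42.0 and limma 3.58.1 on log2(TPM + 1) of the deposited TPM were alternatives. On simulated data of 14552 genes for 1 week against week 0, 76% of genes changed 2-fold and 100% of those changed 4-fold were recovered, and 10 unchanged genes were called. The changed genes were drawn from those with a mean of at least 10 CPM. The simulated libraries held no GC trend, no outlying library and no hepatocyte transcripts that vary by library. These rates may therefore not carry over to the real libraries.

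Source classes used a ratio of 4 and at least 1 CPM. Reads could be shared where at least 10% of a gene's 50-base words occur in other genes. The members and lists were chosen with earlier results of these data known, so no count below is independent support for them. Genes named were the 10 risen and 10 fallen macrophage-enriched or shared genes with the largest change among those called, without overlap and with a group mean of at least 20 CPM, 6 risen and up to 3 fallen liver-enriched genes, up to 4 called members with the smallest p in each list, the 5 largest changes each way between 4 and 1 weeks, and Clec4f, Timd4, Vsig4, Cd5l, Adgre1, Alb, Apoa1 and Cyp2e1. Other genes were named after their values were seen, and some genes that the rule picks are not reported here. Alternatives chosen after seeing the data were the removal of a GC and length trend, of sequence-sharing genes, of both first libraries and of the 10, 20 and 30 week libraries, and the endothelial covariate.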

Additional observations from a re-analysis of the deposited data

Results flagged for a closer look

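For 39 of the named genes the level differed between 1 and 4 weeks by edgeR's contrast of 4 weeks against 1 week. In that contrast 1065 genes were called in all (7.32%). Genes named for the largest changes between 4 and 1 weeks were picked from these same calls, so they pass by construction. Most others were picked with the 1 week libraries, which both comparisons share, and this favours a return toward week 0. The count of 39 is therefore no independent support. Values here are log2 differences of 4 weeks minus 1 week, with 26 genes lower and 13 higher at 4 weeks. Hepatocyte genes that had risen at 1 week were lower at 4 weeks, namely Mup17 (-5.42), Gm2083 (-5.25), Mup7 (-4.93), Mup11 (-4.85), Ugt2b1 (-4.48), Mup20 (-3.13), Mup3 (-2.35), Selenbp2 (-7.16), C9 (-2.83), Cyp4f14 (-2.80) and Ahcy (-1.28). Of the genes that set the 1 week libraries apart, Rpl29 (-8.29) and Ifi208 (-5.98) were near 0 again. Stress and signalling genes were lower as well, with Hspa1b at -4.24, Hsp90aa1 at -1.31 and Ccl7 at -3.53, as were Thrsp (-5.18), which promotes lipogenesis, and Atp5c1 (-0.65), of the ATP synthase. Surface and lysosome genes that were lower were Pmp22 (-1.30), March1 (-0.93), Clec12a (-0.86), Entpd1 (-0.83), Cd38 (-0.81), Lamp2 (-0.74), Il18bp (-0.70) and Ctss (-0.68). The genes that were higher at 4 weeks were Nckap5l (1.97), Slfn9 (1.90), Atf5 (1.79), Itgam (1.72), Zfp579 (1.72), Kcp (1.69), Bicra (1.40), Mvd (1.38), Dtx3 (1.32), Pde1b (1.24), Leng8 (1.15), Pias3 (1.09) and Ikbke (1.00). With the GC and length trend removed 15 of the 39 were still called, among them Mup17, Thrsp, Selenbp2, Rpl29, Ifi208, Dtx3 and Bicra. Those that lost the call included Pmp22, March1, Ctss, Lamp2, Cd38, Il18bp, Mvd and Leng8. Without the first 1 week library the contrast called 129 genes.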

How the results depend on the processing

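The count of genes changed at 1 week, 2325, was 1492 with only the compared libraries, 1546 without liver-enriched genes (fewer genes by construction), 198 with the hepatocyte signal as a covariate, 1553 with the endothelial signal, 932 without both first libraries, and 1068 to 1931 with 1 library left out. It was 2306 with RLE scaling, 2139 with no filter, 2880 with DESeq2 and 3121 with limma. The count between 4 weeks and 1 week, 1065, was 1709 with DESeq2, 135 with only the compared libraries, 256 without the 10, 20 and 30 week libraries, 88 with the GC trend removed, and 129 to 812 with 1 library left out. Changed list members, 98, numbered 9 with the hepatocyte covariate and 55 to 92 with 1 library left out. The mean liver share of 3.79% was 5.26% by the plasma protein list. Single genes reversed in 18 cases. With the hepatocyte covariate, which can hardly be told apart from the group, they were Cyp2c29 (-1.66), Cd300lf (-0.10), Ccl7 (-0.78), Reln (-1.55), Sox9 (-0.43), Fn1 (-0.93) and Alb (-0.66). With the whole-liver share subtracted they were Cideb (-1.40), Gpnmb (-6.45), Hp (-7.61), C1s1 (-3.89), Gys2 (-2.59), Col3a1 (-6.71) and Alb (-9.94), and Hpx, Rbp4, Apoa1 and Cyp2e1 came to 0. The subtracted share was set from the hepatocyte markers, which include Alb, Apoa1, Cyp2e1 and Hpx, and counts below 0 were set to 0. Values at or below 0 after the subtraction can thus follow from the method itself. None of the reversed values passed the test. The cause of the reversals with the covariate was not tested. Of 102 named genes that are not liver-enriched, 94 kept their call with the replicate block, 50 and 70 without the first and second 1 week library, 16 with the hepatocyte covariate, 96 with the subtraction, 54 with the endothelial covariate and 95 with the GC trend removed. The samples share only a replicate number, with correlations of 0.153 and 0.105 between same-numbered libraries, and with that number as a block 1926 genes changed at 1 week and 787 between 4 weeks and 1 week. Depth left a floor of 3 counts, under which no fold was given.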

Other observations

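Some further RNAs that differed between week 0 and 1 week belong in no list above. Lars2, a mitochondrial leucine-tRNA synthetase whose transcript is known to collect ribosomal reads, stood at 30.2, 29.6 and 27.5 CPM at week 0, at 564 and 262 CPM at 1 week and at 173 and 408 CPM at 4 weeks. Rn45s, the ribosomal RNA precursor, stood at 990, 411 and 400 CPM then at 5161 and 3376 CPM, and at 4 weeks at 6611 and 13870 CPM, so both RNAs were above week 0 at both times. Rn45s passed edgeR's test, but not without the first 1 week library (adjusted p = 0.10) or without the second or the third week 0 library (0.060 and 0.061). Wdfy1, an endosomal adaptor, stood at 73.8, 61.5 and 75.1 CPM at week 0, at 30.9 and 26.1 CPM at 1 week and at 67.3 and 61.8 CPM at 4 weeks, and Ide, the insulin-degrading enzyme, at 99.3, 70.9 and 73.7 CPM, 154 and 146 CPM, and 63.0 and 89.8 CPM. The labels give 1 strain for all Kupffer cell libraries of the time course, and what set Wdfy1 and Ide, like Rpl29, Ifi208 and Nnt above, apart in the 1 week libraries was not tested.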
